A study of Mus musculus with 14 samples.

Results

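The genes described here carry iron into cells: the transferrin receptors Tfrc and Tfr2, the metal transporters Slc11a2, Slc39a14 and Slc39a8, and the Steap family of membrane reductases, Steap1 to Steap4. They were chosen by name, and every probe set annotated to exactly 1 of these 9 genes was read, which gave 30 of the 45101 probe sets on the array (9 of 18194 named genes). Tfrc has 6 of them, and 3 of these are array controls placed along its transcript, one near each end and one between. The other 8 genes have 24.

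Most cells take up iron bound to transferrin. Transferrin docks on transferrin receptor 1 at the cell surface, the complex is carried into acidic endosomes, the ferric iron released there is reduced by a Steap protein, and Slc11a2, also called DMT1, moves the ferrous iron into the cytosol. Slc39a14 (ZIP14) and Slc39a8 (ZIP8) import iron that is not bound to transferrin, along with zinc and manganese. In iron-poor cells the iron regulatory proteins bind iron-responsive elements in the Tfrc mRNA, and in some Slc11a2 mRNAs, and stabilise them. In dopaminergic neurons, tyrosine hydroxylase, the rate-limiting enzyme of dopamine synthesis, needs iron as a cofactor.

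The series comprised 14 Affymetrix arrays of ribosome-bound mRNA that had been immunoprecipitated from fresh ventral midbrain. The animals came from an F2 cross (129Sv with C57BL/6) that carried the Ribotag allele, with which a tagged ribosomal protein lets the translated mRNA of chosen cells be pulled down, here dopaminergic neurons. Tfr1-null mice (Tfr1ΔDN) had Tfrc, the gene of transferrin receptor 1, deleted in dopaminergic neurons, and the controls (CTR) were heterozygous for the Tfr1 allele. At 3 weeks of age the controls had 3 libraries and Tfr1-null had 4. At 10 weeks it was 4 and 3. No source used here names the driver of the deletion or the deleted exons. Nothing in the labels says that replicates were separate animals, so p values measure the spread between these samples, which may be technical. In ribosome-bound RNA of a tissue, fewer cells of a type and less RNA per cell cannot be told apart.

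Values are deposited log2 signals, and every difference below is Tfr1-null minus control in log2 units. Array medians ran from 6.41 to 6.47 at the younger age and from 7.36 to 7.43 at the older, so levels were not compared between the ages. Where the whole group lay below the 25th percentiles of its arrays, the probe set counted as not above background there. These percentiles were 4.33 to 4.41 at 3 weeks and 5.45 to 5.54 at 10 weeks. The 10 markers of dopaminergic neurons that were read, Th, Slc6a3 and Slc18a2 among them, averaged 12.00 to 13.35 per library. Sex-linked transcripts were of the male kind in control 2 alone among the 7 younger libraries and in 7 of 7 older ones. The 14 arrays limit the precision of each comparison.

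The targeted gene, Tfrc, was read in every library first. The probe set with the highest signal, 1452661_at, read 11.29, 11.12 and 11.27 in the controls at 3 weeks and 11.18, 12.95, 12.77 and 12.77 in Tfr1-null 1 to 4. At 10 weeks control 1 to 4 read 13.09, 11.43, 11.66 and 11.50, against 13.02, 13.11 and 13.31 in Tfr1-null. The library labelled Tfr1-null 1 at 3 weeks thus lay among the controls, and the library labelled control 1 at 10 weeks lay among the Tfr1-null values. The source name of the former says control, against its title and genotype. At 1422966_a_at and 1422967_a_at the former read 10.40 and 10.31, just above the highest controls at 10.39 and 10.26, and the latter 12.42 and 12.96, within or above the Tfr1-null values. Results are therefore given for the 14 libraries by their labels and for the 12 left without this pair.

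In the 12 libraries 5 of 6 Tfrc probe sets were higher in Tfr1-null at both ages, by 1.61 to 2.03 at 3 weeks and by 1.61 to 2.42 at 10 weeks. The control probe set at the 5′ end was lower, by -2.31 at 3 weeks and -1.60 at 10 weeks. With 14 libraries the same 5 differed by 1.19 to 1.52 at 3 weeks and 1.22 to 1.87 at 10 weeks, and the 5′ probe set by -1.70 and -1.22, and limma with Benjamini-Hochberg adjustment called none of the 6 at either age (adjusted p = 1 at 3 weeks and from 0.143 to 0.332 at 10 weeks). Since the 2 libraries were set aside by their Tfrc signal, the 12-library differences of Tfrc are a description and carry no test. Genes whose signal follows that of Tfrc, or runs opposite to it, are favoured by the same choice. Their 12-library p values are to be read with that limit.

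**Figure D1:**
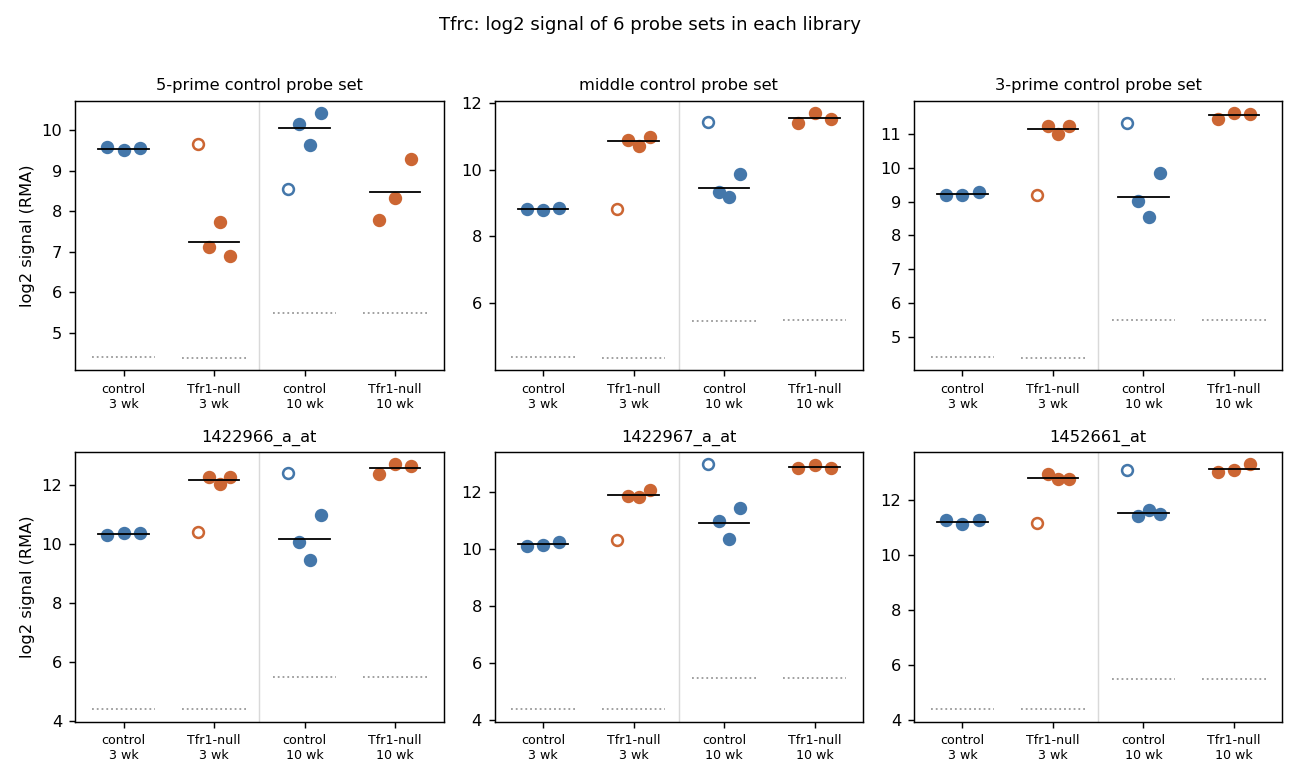
Log2 signal (y axis) of the 6 Tfrc probe sets in each library by group (x axis); filled points are the 12 libraries, open points the library labelled Tfr1-null 1 at 3 weeks and the library labelled control 1 at 10 weeks, black lines the group means of the filled points and dotted lines the mean 25th percentile of the arrays. Filled Tfr1-null points lie below the controls at the 5′ probe set and above them at the other 5.

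Of the 24 probe sets of the other 8 genes, limma called 5 at 3 weeks in the 12 libraries, 2 higher and 3 lower, where 0.821% of all 45040 probe sets tested were called (0.344% higher, 0.477% lower). Those 5 read Tfr2, Slc11a2, Steap1 and Steap4. At 10 weeks it called 7, 4 higher and 3 lower, against 6.77% of all probe sets (3.23% higher, 3.54% lower), and these read the same 4 genes and Steap2. With all 14 libraries limma called 0 of 24 at either age, where 0% of all probe sets were called at 3 weeks and 0.377% at 10 weeks, and 7 and 4 of the 24 had an unadjusted p under 0.05. The median difference over the 24 in the 12 libraries was 0.17 at 3 weeks and 0.10 at 10 weeks, beside 0.00 over all probe sets at both ages. The groups did not overlap at 12 of the 24 at 3 weeks, 8 higher and 4 lower, where 20.1% of all probe sets were so separated (10.7% higher, 9.37% lower). At 10 weeks they did not overlap at 9, 5 higher and 4 lower, against 18.8% (9.24% higher, 9.55% lower). With 14 libraries this held for 6 of the 24 at 3 weeks, 3 higher and 3 lower, against 6.76% (3.08% higher, 3.69% lower), and for 2 at 10 weeks, both higher, against 8.67% (4.4% higher, 4.27% lower).

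The 10-week calls were fewer when that age was fitted alone, which changes both the spread and its degrees of freedom. In a fit of the 6 older libraries of the smaller set by themselves, 1 of the 7 was still called, Steap4 (adjusted p = 0.0315), with the other 6 at adjusted p from 0.0863 to 0.212. The 6 libraries of 3 weeks fitted alone gave 8 called probe sets, as 2 more of Slc11a2 and 1 of Slc39a14 were added.

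**Figure D2:**
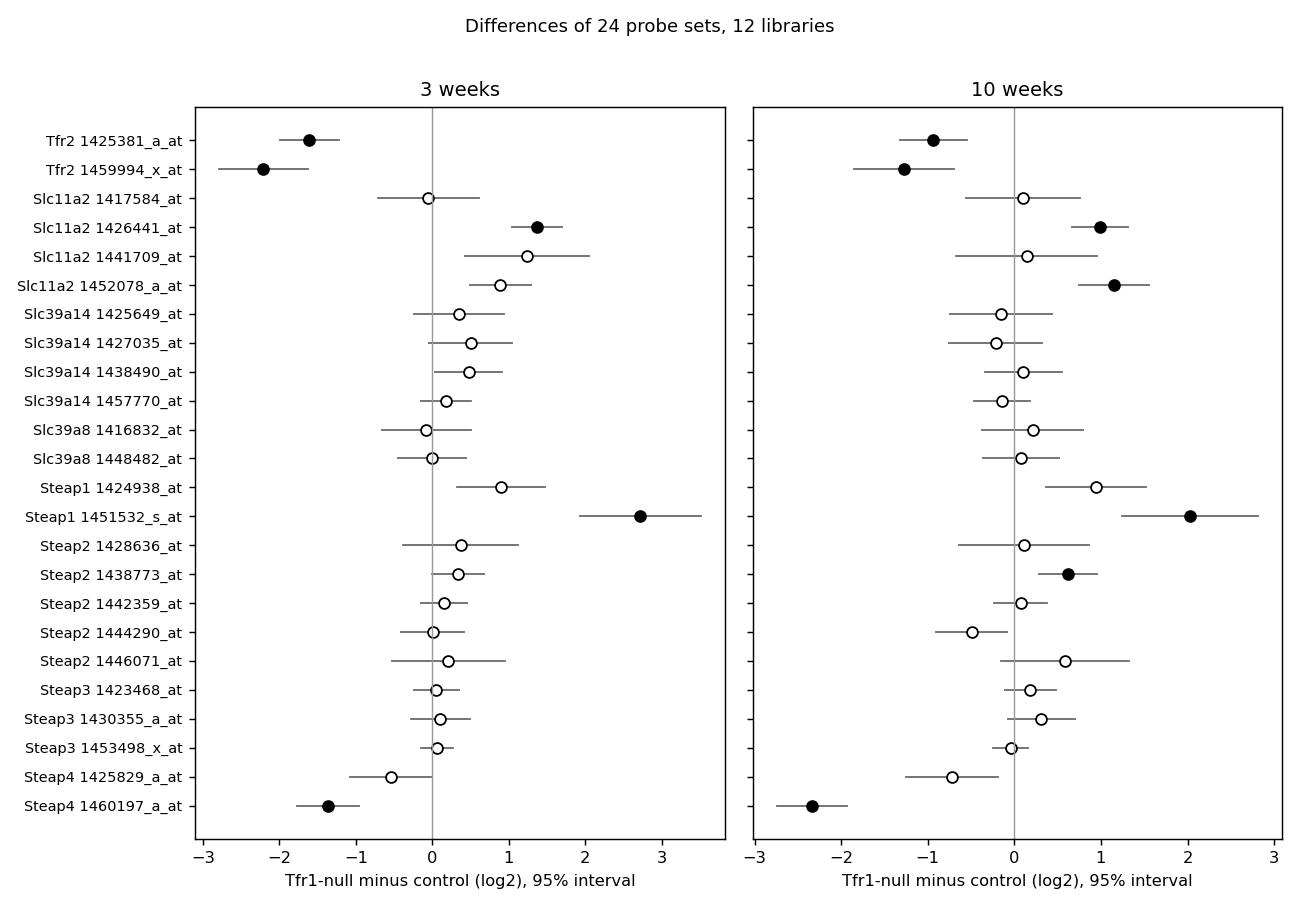
Tfr1-null minus control in log2 units (x axis, bars the 95% interval from limma) for the 24 probe sets of the 8 genes other than Tfrc, at 3 weeks and at 10 weeks in the 12 libraries; filled points are called at an adjusted p under 0.05, and values against a group not above background are fitted ones, not bounds. The 2 probe sets of Tfr2 and 1460197_a_at of Steap4 lie below 0 at both ages, and 1426441_at of Slc11a2 and 1451532_s_at of Steap1 above it.

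Tfr2, the second transferrin receptor, was lower in Tfr1-null at both ages in the 12 libraries. It binds transferrin less tightly than transferrin receptor 1 and is known in liver as a sensor of transferrin saturation. At 3 weeks 1425381_a_at read 7.78, 8.05 and 8.01 in the controls, 6.62, 6.06 and 6.34 in Tfr1-null 2 to 4, and 7.58 in the library labelled Tfr1-null 1. Every control lay above every Tfr1-null library, also with the doubtful one, which lay nearest to the controls. In the 12 libraries Tfr2 fell by 1.61 (SE 0.18, n = 3 per group, limma adjusted p = 0.00144), a 3.05-fold decrease, and 1459994_x_at fell by 2.21 (SE 0.26, adjusted p = 0.00266). With 14 libraries they differed by -1.30 (SE 0.33) and -1.82 (SE 0.64, both at limma adjusted p = 1).

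At 10 weeks 1425381_a_at read 7.83, 8.80, 8.77 and 8.83 in control 1 to 4 and 8.04, 7.50 and 8.06 in Tfr1-null. Control 2 to 4 lay close together and above all Tfr1-null values. Without the library labelled control 1, Tfr2 fell by 0.94 (SE 0.18, limma adjusted p = 0.0113) and by 1.28 at 1459994_x_at (SE 0.26, adjusted p = 0.0172), and with it the differences were -0.69 (adjusted p = 0.306) and -0.58 (adjusted p = 0.692). Both calls were lost with array weights (limma adjusted p = 0.0668 and 0.15) and with the replicate number as a block (0.0794 and 0.0634), and that at 1459994_x_at also without control 3 (0.0517). The fall was smaller at 10 than at 3 weeks, by 0.67 (SE 0.25) and 0.93 (SE 0.37), but this difference between ages did not pass in limma (adjusted p = 0.361 and 0.400).

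Slc11a2, the transporter that takes ferrous iron out of the endosome, was higher in Tfr1-null in the 12 libraries. At 3 weeks 1426441_at read 9.39, 9.39 and 9.35 in the controls, 10.80, 10.61 and 10.81 in Tfr1-null 2 to 4, and 9.31 in the library labelled Tfr1-null 1. That library lay under all controls, and the other 3 lay well above them. Without it the rise was 1.37 (SE 0.15, n = 3 per group, limma adjusted p = 0.00137), or 2.58-fold, and with it the difference was 1.01 (SE 0.36, adjusted p = 1).

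At 10 weeks the same Slc11a2 probe set read 11.41, 10.64, 10.10 and 10.08 in control 1 to 4 and 11.15, 11.26 and 11.38 in Tfr1-null. The library labelled control 1 was the highest of all 7, and the other controls lay under each Tfr1-null library. Slc11a2 rose by 0.99 in the 12 libraries (SE 0.15, limma adjusted p = 0.00364), and differed by 0.71 (SE 0.36, adjusted p = 0.343) in the 14.

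The 4 Slc11a2 probe sets did not move alike. At 1452078_a_at the 10-week controls read 9.81, 9.03, 9.50 and 9.41 and the Tfr1-null libraries 10.16, 10.89 and 10.33, so that the groups did not overlap even with the doubtful library. The rise there was 1.15 in the 12 libraries (SE 0.18, limma adjusted p = 0.00491). With 14 libraries it was 1.03 (SE 0.25, adjusted p = 0.0824), and at 3 weeks in the 12 it was 0.89 (SE 0.18, adjusted p = 0.0582). At 1441709_at the difference was 1.24 at 3 weeks (SE 0.37, limma adjusted p = 0.249) but 0.14 at 10 weeks (SE 0.37, adjusted p = 0.869), where the controls spread from 6.16 to 7.94. Probe set 1417584_at differed by -0.05 (95% interval -0.72 to 0.61) and 0.10 (-0.56 to 0.76). Slc11a2 mRNAs differ in their first exon and in whether they carry an iron-responsive element, and which of them each probe set reads, no source used here says.

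**Figure D3:**
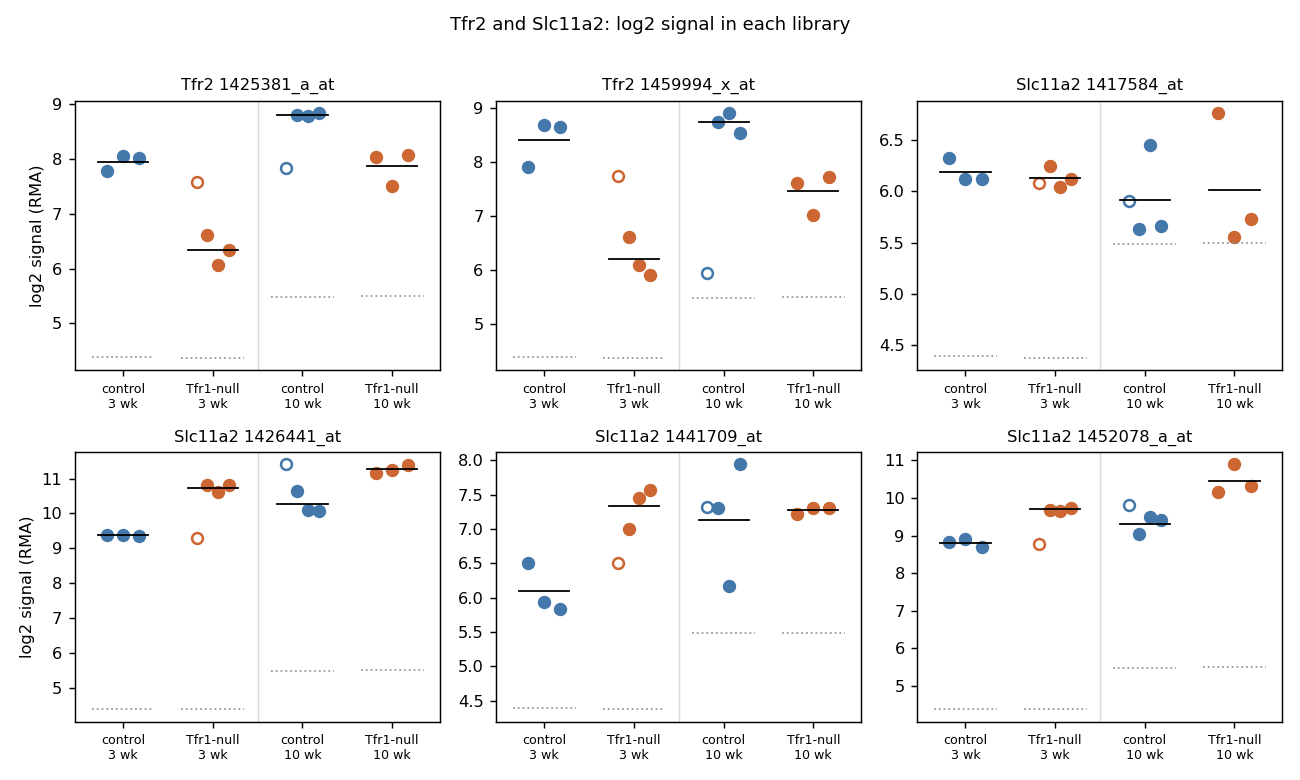
Log2 signal (y axis) of the 2 Tfr2 and 4 Slc11a2 probe sets in each library by group (x axis), with symbols as in the plot of Tfrc. Filled Tfr1-null points lie below the controls for Tfr2 and above them for 1426441_at and 1452078_a_at at both ages, while 1417584_at overlaps.

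Neither importer of iron that is not bound to transferrin passed the test. Slc39a14 is the ZIP transporter known for uptake of such iron by liver and for manganese handling. Its probe set of highest signal, 1427035_at, read 8.90, 8.75 and 8.85 in the controls at 3 weeks and 8.97, 9.35, 9.29 and 9.37 in Tfr1-null 1 to 4. Here all 4 Tfr1-null libraries, the doubtful one included, lay above all controls. The difference was 0.50 in the 12 libraries (SE 0.24, limma adjusted p = 0.692) and 0.41 in the 14 (SE 0.33, adjusted p = 1). It was called, at adjusted p = 0.0263, in a fit of the 6 younger libraries by themselves.

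At 10 weeks the same Slc39a14 probe set read 11.38, 10.63, 9.59 and 9.95 in control 1 to 4 and 9.60, 10.29 and 9.63 in Tfr1-null. The spread among controls covered the Tfr1-null values, and the difference was -0.22 in the 12 libraries (SE 0.24, limma adjusted p = 0.668) and -0.55 in the 14 (SE 0.33, adjusted p = 0.429). Without control 2 the 12-library value turned to 0.07. Of the other 3 Slc39a14 probe sets, 1438490_at and 1425649_at differed by 0.47 and 0.35 at 3 weeks and by 0.10 and -0.15 at 10 weeks, and 1457770_at, dim and with several libraries at 1 shared value, by 0.18 and -0.14.

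Slc39a8, a ZIP transporter of zinc, manganese and iron, had low signal. Probe set 1416832_at read 5.70, 5.18 and 5.60 in the controls and 5.44, 6.11, 5.09 and 5.03 in Tfr1-null 1 to 4 at 3 weeks. At 10 weeks control 1 to 4 read 6.85, 5.96, 5.98 and 6.20, and the Tfr1-null libraries 6.05, 6.25 and 6.47. The groups overlapped at both ages. The 12-library differences were -0.08 (95% interval -0.66 to 0.50, limma adjusted p = 1) and 0.21 (95% interval -0.37 to 0.79, adjusted p = 0.700). Its second probe set, 1448482_at, was not above background in any group.

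Among the Steap genes, Steap1 was higher and Steap4 lower in Tfr1-null, and Steap3 did not pass at either age. Steap2, Steap3 and Steap4 are metalloreductases that pass electrons from NADPH to ferric iron and cupric copper. Steap1 shares their membrane part but lacks the domain that binds NADPH. Steap3 is the main ferrireductase of transferrin endosomes in red cell precursors.

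Steap1 was read by 1451532_s_at at 3.59, 3.53 and 3.51 in the controls at 3 weeks, 7.01, 5.67 and 6.09 in Tfr1-null 2 to 4, and 3.87 in the library labelled Tfr1-null 1. The controls lay under the 25th percentile of their arrays, so Steap1 was not above background there, and the 3 high libraries lay clear of it. The rise was at least 1.87 in the 12 libraries (fitted difference 2.72, SE 0.36, n = 3 per group, limma adjusted p = 0.00447). With 14 libraries the difference was at least 1.27 (fitted 2.12, SE 0.65, adjusted p = 1). The ending _s_at of this probe set marks one that can read more than 1 transcript.

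At 10 weeks the same Steap1 probe set read 6.51, 4.27, 4.59 and 4.93 in control 1 to 4 and 6.56, 7.29 and 6.04 in Tfr1-null. Control 2 to 4 were again not above background, while the library labelled control 1 lay within the Tfr1-null range. Steap1 rose by at least 1.14 in the 12 libraries (fitted difference 2.03, SE 0.36, limma adjusted p = 0.00854), and differed by 1.55 (SE 0.65, adjusted p = 0.246) in the 14. That call was lost with array weights (adjusted p = 0.0581). The other probe set, 1424938_at, was not above background in any 3-week group or in the 10-week controls. At 10 weeks it read 4.14, 3.94 and 4.05 in control 2 to 4 and 5.01, 5.58 and 4.38 in Tfr1-null, of which only 5.58 lay above its array's 25th percentile, so no size is given.

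Steap4 moved the other way. At 3 weeks 1460197_a_at read 7.13, 7.23 and 7.16 in the controls, 5.83, 5.77 and 5.83 in Tfr1-null 2 to 4, and 7.07 in the library labelled Tfr1-null 1. The groups of 3 lay apart, and the doubtful library lay just under the lowest control. Tfr1-null 2 and 4 share 1 deposited value. Steap4 fell by 1.37 in the 12 libraries (SE 0.18, n = 3 per group, limma adjusted p = 0.00507), or 2.58-fold, and differed by -1.05 (SE 0.52, adjusted p = 1) in the 14.

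At 10 weeks the same Steap4 probe set read 4.86, 7.37, 6.73 and 7.46 in control 1 to 4 and 4.65, 5.12 and 4.77 in Tfr1-null. All Tfr1-null values lay under the 25th percentile of their arrays, as did the library labelled control 1. The fall was at least 1.69 in the 12 libraries (fitted difference -2.34, SE 0.18, limma adjusted p = 0.000115) and the difference at least 1.11 lower in the 14 (fitted -1.76, SE 0.52, adjusted p = 0.123). The other Steap4 probe set, 1425829_a_at, differed by -0.54 at 3 weeks (adjusted p = 0.614) and was at least 0.48 lower at 10 weeks (adjusted p = 0.107), with no overlap between groups at either age in the 12 libraries. As the 10-week fall of 1460197_a_at is only a bound, the size of its difference from the 3-week fall is not given; the difference between ages did not pass (limma adjusted p = 0.229).

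Steap2, a reductase of the Golgi and plasma membrane, had 5 probe sets, of which 1 passed at 1 age. Probe set 1438773_at read 6.20, 5.94, 5.85 and 6.09 in control 1 to 4 at 10 weeks and 6.57, 6.84 and 6.30 in Tfr1-null, without overlap in the 14 libraries. It rose by 0.62 in the 12 (SE 0.15, n = 3 per group, limma adjusted p = 0.0371) and differed by 0.55 in the 14 (SE 0.14, adjusted p = 0.0905). That call was lost when any of 8 of the 12 libraries was left out, with limma adjusted p from 0.0555 to 0.0975. It was also lost with array weights (limma adjusted p = 0.1603) and with the replicate number as a block (0.1185). At the probe set of highest signal, 1428636_at, the differences were 0.37 (SE 0.34) at 3 weeks and 0.11 (SE 0.34) at 10 weeks, where the controls spread from 8.15 to 9.85. Probe set 1444290_at went the other way at 10 weeks, at -0.49 (SE 0.19, adjusted p = 0.149).

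Steap3 had overlapping groups. Probe set 1423468_at read 5.61, 5.68 and 5.76 in the controls at 3 weeks and 5.76, 5.83, 5.61 and 5.76 in Tfr1-null 1 to 4. At 10 weeks control 1 to 4 read 6.68, 6.79, 6.79 and 6.73, beside 6.86, 7.27 and 6.73 in Tfr1-null. The 12-library differences were 0.05 (95% interval -0.24 to 0.34, limma adjusted p = 1) and 0.18 (95% interval -0.11 to 0.48, adjusted p = 0.469). Some libraries share exactly the same deposited value at all 3 Steap3 probe sets, as at some probe sets of Slc11a2, Slc39a14, Slc39a8, Steap2 and Steap4, and the spread there may understate replicate error. At 1430355_a_at all 14 libraries lay under the 25th percentile.

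**Figure D4:**
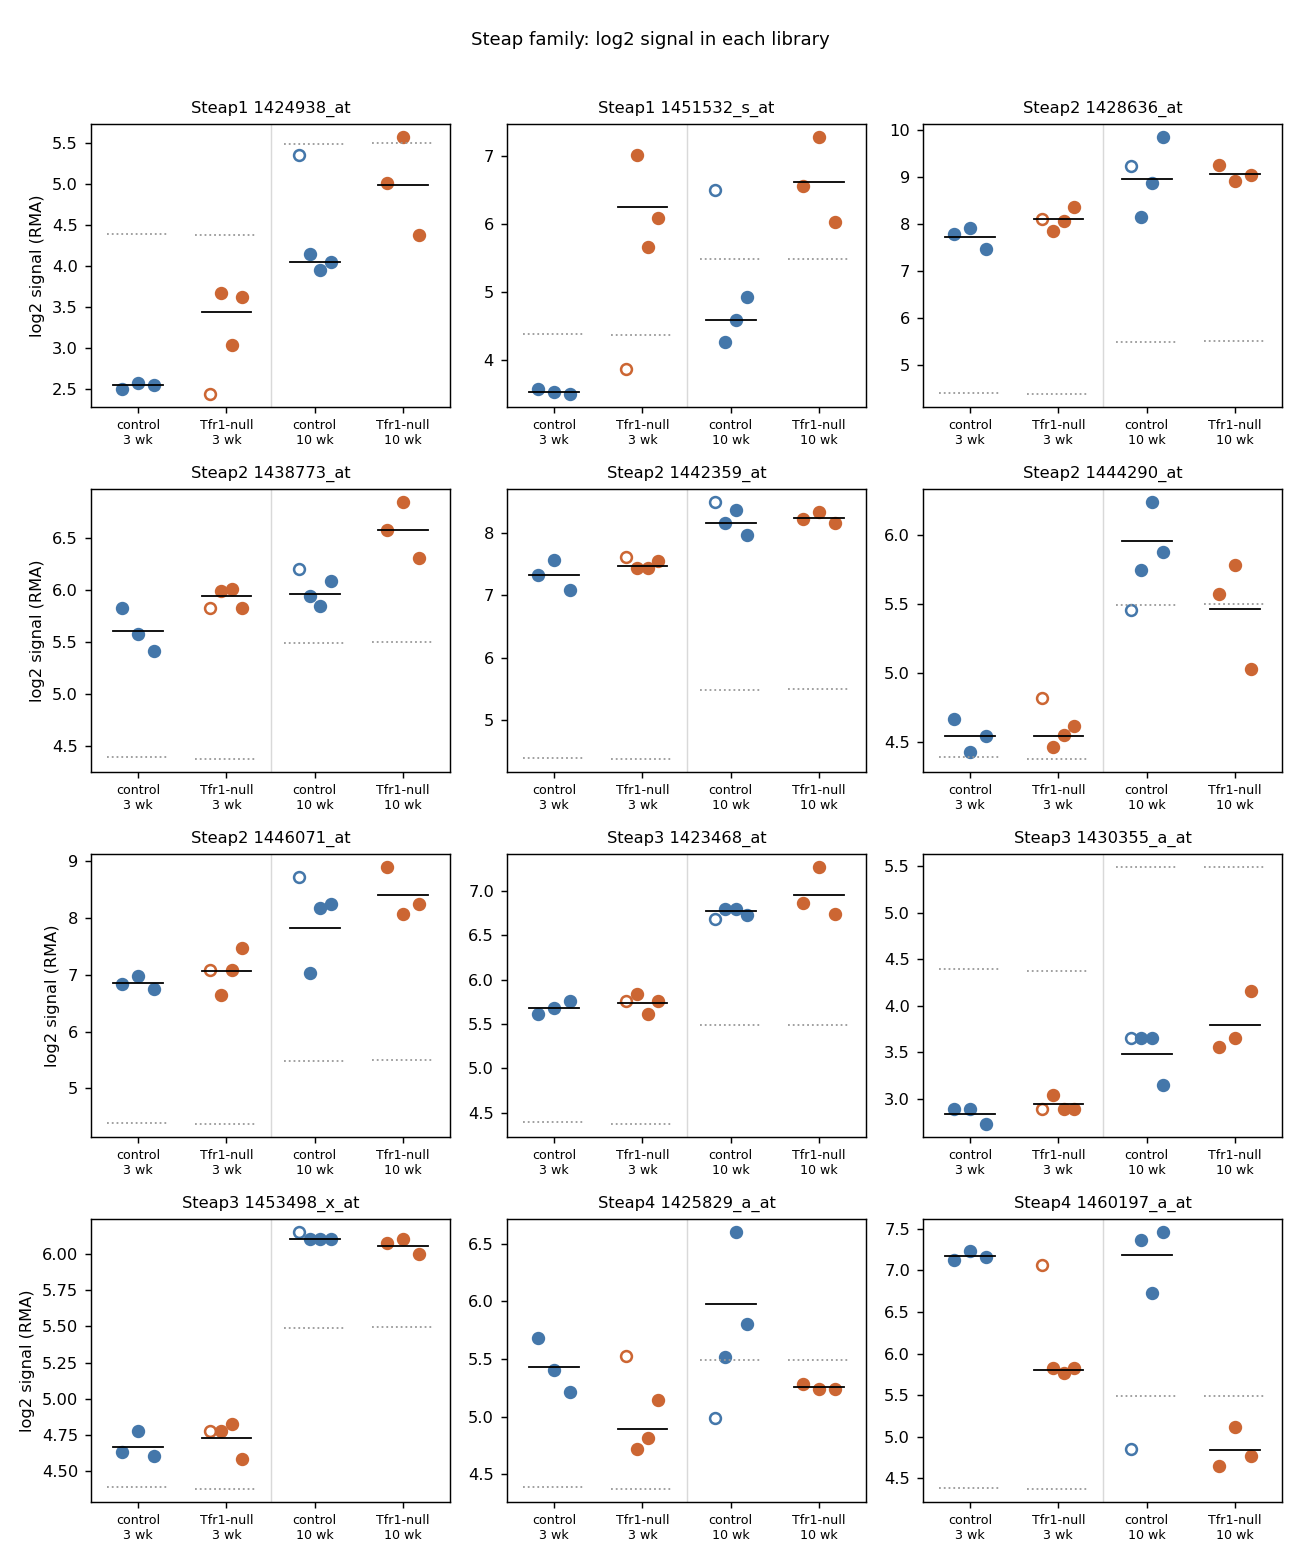
Log2 signal (y axis) of the 12 Steap probe sets in each library by group (x axis), with symbols as in the plot of Tfrc. Among the filled points, Steap1 1451532_s_at moves from below the dotted line in controls to above it in Tfr1-null. Steap4 1460197_a_at falls at both ages, and the Steap3 groups overlap.

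None of the 24 probe sets was called for a difference between the ages in its response to the deletion. Limma called 0 in the 12 libraries, where 0.14% of all probe sets were called (0.0977% higher, 0.0422% lower) and 3 of the 24 had an unadjusted p under 0.05, and 0 in the 14, where 0% were called and 0 of the 24 reached that p. A p that misses the threshold does not show that the responses were alike.

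Start sites of these genes were searched for ACGTG on either strand, the core letters to which hypoxia-inducible factor binds, of which Tfrc is a known target. RefSeq promoter sequences (GRCm38.p6) were at hand for 7 of the 9 genes, in 16 windows of 250 bases before a transcript start. Slc11a2 and Slc39a14 had no window. ACGTG was found in 5 of the 16 windows, of 4 genes, and in 16.6% of the 32851 windows of all genes. The letters overlap the E-box CACGTG, which the Slc39a8 window holds and 6.02% of all windows hold. The site in each of the 5 windows is shown with 30 bases, 5′ to 3′, capitals marking the match (in Slc39a8 2 overlapping matches, on both strands), because both a member that was higher and one that was lower have one.
Tfrc, start 2, chr16:32608882-32608911, plus strand: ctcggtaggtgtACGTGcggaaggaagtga
Tfr2, start 1, chr5:137569756-137569785, plus strand: ctccagaaaaggACGTGcgggggcggagtc
Tfr2, start 2, chr5:137570638-137570667, plus strand: cccctcccccctCACGTtaagcccccccat
Slc39a8, start 2, chr3:135825574-135825603, plus strand: ggagtgtgacacCACGTGcttcaggggcgg
Steap2, start 3, chr5:5694240-5694269, minus strand: gcgggcgggatcCACGTagggctgctccca

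The Tfrc match lies 228 bases before the second of its 2 start sites and the Tfr2 matches 72 and 70 bases before the first and second of its 3. Tfrc was higher in the 12 libraries and Tfr2 fell, while Slc39a8 did not pass and Steap2 passed at 1 probe set. Steap1 and Steap4, which changed in opposite directions in the 12 libraries, held no ACGTG in the window. Neither window held the amino acid response element TGATGNAA, the AP-1 letters TGANTCA or TGACNNNGC, the core of the antioxidant response element, on either strand; 3.45%, 6.75% and 10.2% of all windows do. The 2 windows are printed to show how they compare.
Steap1, chr5:5749318-5749567, minus strand: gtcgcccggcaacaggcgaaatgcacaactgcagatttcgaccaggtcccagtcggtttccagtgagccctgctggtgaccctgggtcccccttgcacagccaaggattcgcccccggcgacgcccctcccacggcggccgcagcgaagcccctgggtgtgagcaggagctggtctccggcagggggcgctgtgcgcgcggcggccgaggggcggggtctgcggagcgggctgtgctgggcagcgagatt
Steap4, chr5:7960222-7960471, plus strand: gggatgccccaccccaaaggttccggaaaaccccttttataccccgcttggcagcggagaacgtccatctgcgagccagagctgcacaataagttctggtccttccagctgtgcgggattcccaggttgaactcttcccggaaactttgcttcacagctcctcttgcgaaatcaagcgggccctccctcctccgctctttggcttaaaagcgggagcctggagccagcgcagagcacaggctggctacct
A match of letters is a description, and its absence says only that these letters are not in this window.

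Other genes of iron and metal uptake were read from 5 lists, each gene by its probe set of highest mean signal. None was called with 14 libraries at either age. In the 12 libraries 0 of 18 partners of the transferrin cycle passed at 3 or 10 weeks, with medians of 0.01 and -0.20. The 2 with the smallest p were Hfe, which encodes a partner of both transferrin receptors, at -1.23 (SE 0.34, limma adjusted p = 0.206) at 3 weeks, and Rab4a, a GTPase of fast endosome recycling, at -0.32 (SE 0.09, adjusted p = 0.0555) at 10 weeks. Hfe read 6.03 to 6.78 in the controls and 4.97 to 5.70 in Tfr1-null at 3 weeks, without overlap in the 12 libraries.

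Of 18 genes for other routes of iron, heme and siderophore uptake, 0 passed in the 12 libraries at either age, with medians of -0.01 and 0.02. Cubn, which encodes the endocytic receptor cubilin, differed by -1.37 at 10 weeks (SE 0.42, limma adjusted p = 0.0782) and the heme transporter gene Slc48a1 by -0.55 (SE 0.23, adjusted p = 0.195). Among 10 adaptors and chaperones of Slc11a2, 0 passed, with medians of -0.01 and -0.02. The ubiquitin ligase genes Wwp2 and Nedd4 had the smallest p, at -0.31 (SE 0.09, adjusted p = 0.252) at 3 weeks and 0.40 (SE 0.15, adjusted p = 0.153) at 10 weeks.

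Other reductases and other ZIP transporters held calls in the 12 libraries. Of 9 reductases, 1 fell at 3 weeks and 2 at 10 weeks, with medians of -0.01 and -0.27. Nqo1, a quinone reductase of the antioxidant response, read 8.27 to 8.44 in the controls and 6.02 to 6.48 in Tfr1-null at 3 weeks. It fell by 2.06 there (SE 0.16, limma adjusted p = 0.000189) and by 1.23 at 10 weeks (SE 0.16, limma adjusted p = 0.00152). Cyb561d2, of the cytochrome b561 family of transmembrane reductases, fell by 1.20 at 10 weeks (SE 0.26, adjusted p = 0.0226). Cybrd1, the duodenal ferric reductase, differed by 0.04 and 0.10 (adjusted p = 1 and 0.835).

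Of 12 other ZIP genes, 0 passed at 3 weeks and 5 at 10 weeks, 2 higher and 3 lower, with medians of 0.06 and -0.04. Slc39a6 and Slc39a10, zinc importers that are close relatives, rose by 0.32 (SE 0.08, limma adjusted p = 0.0459) and 0.39 (SE 0.10, adjusted p = 0.0388). Slc39a4, the zinc importer of the gut, fell by 1.56 (SE 0.35, adjusted p = 0.0262), and Slc39a11 and Slc39a13 by 0.61 (SE 0.13, adjusted p = 0.0218) and 0.43 (SE 0.09, adjusted p = 0.0229). Read in the same way, by 1 probe set per gene, 8.75% of 18193 genes were called at 10 weeks and 1.34% at 3 weeks.

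**Figure D5:**
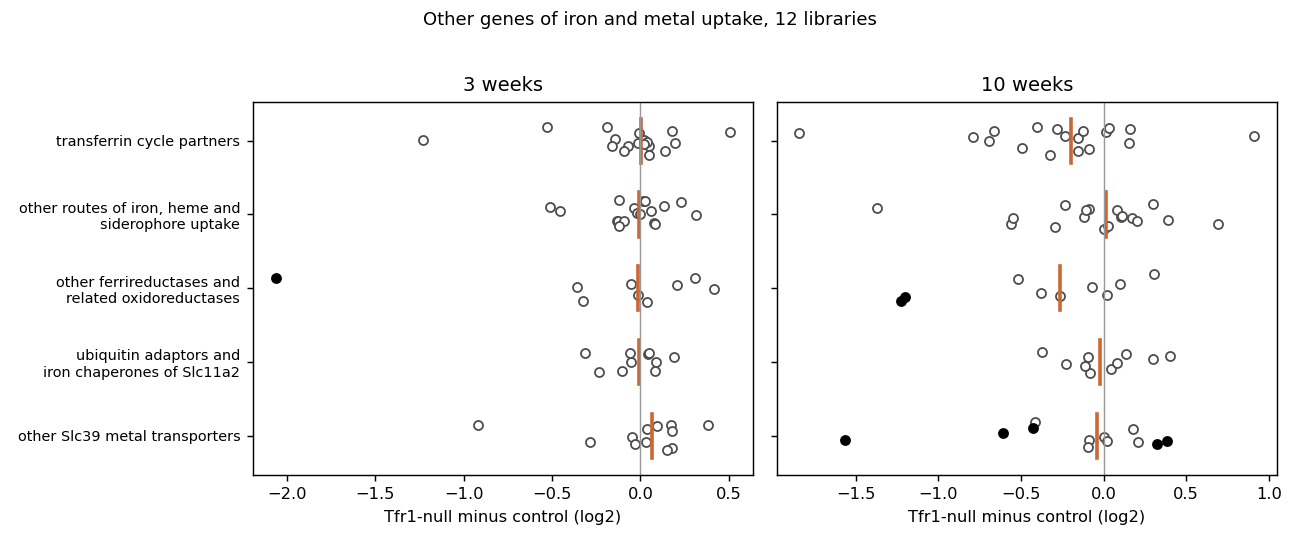
Tfr1-null minus control in log2 units (x axis) for the genes of 5 lists (rows) at 3 and 10 weeks in the 12 libraries; filled points are called at an adjusted p under 0.05 and orange lines are list medians. Filled points lie among the reductases and, at 10 weeks, the ZIP transporters.

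The genes whose signal ran most like each called member were ranked by Pearson correlation over the 12 libraries, after the mean of each age had been taken out. The difference between genotypes enters these values, so they are a description. For Tfrc (1452661_at) they were Slc2a1 (r = 0.996), the glucose transporter gene, Ak4 (0.985), an adenylate kinase gene, and Hk2 (0.984), a hexokinase gene. For Slc11a2 (1426441_at) they were Ldha (0.980), the lactate dehydrogenase gene, Bnip3 (0.975), a mitophagy receptor gene, and Ak4 (0.972). Steap1 ran with Herpud1 (0.971), a gene of the endoplasmic reticulum stress response, Ighm (0.966) and Rbpms (0.959). Tfr2 ran with Gbp6 (0.973), Stat6 (0.965) and Slc9b2 (0.958), and Steap4 with Gstt2, Ipcef1 and Aldh1a7 (0.981, 0.981 and 0.970). Steap2 (1438773_at) had lower values, from 0.934 to 0.943, with Mycl, Clpb and Pck2.

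Markers of other cells were read beside these results. Of 10 microglial markers 1, Cd68, was called in the 12 libraries, higher by 2.01 (SE 0.16) at 3 weeks and by 3.87 (SE 0.16) at 10 weeks in Tfr1-null (limma adjusted p = 0.000215 and 1.04e-06), with list medians of -0.06 and 0.34. The mean of the 10 lay between 6.80 and 6.88 in controls and 6.85 and 7.11 in Tfr1-null at 3 weeks, and at 10 weeks between 7.41 and 7.92 in control 2 to 4 and 8.09 and 8.42 in Tfr1-null, without overlap. The library labelled control 1 read 8.54. Cd68 enters this mean, at 10.22 to 10.65 in Tfr1-null and 6.44 to 6.85 in control 2 to 4 at 10 weeks. The mean thus does not speak for the 10 markers as a set. In the 12 libraries 7 of them were lower in Tfr1-null and 3 higher at 3 weeks, and 3 lower and 7 higher at 10 weeks. Of 10 astrocyte markers Sox9 was called at 10 weeks, at 1.14 (SE 0.30, adjusted p = 0.0472), and of 7 choroid plexus markers Kcne2 was lower at 10 weeks (adjusted p = 0.0281), not above background in Tfr1-null at 4.36 to 4.81 against 5.35 to 6.37 in the controls. None of 9 oligodendrocyte, 10 endothelial or 4 erythrocyte markers was called at either age, and no marker of any list lay under the 25th percentile in every library. Per library, oligodendrocyte markers averaged 3.17 to 4.38 above the array median and astrocyte markers 2.57 to 3.22. The dopaminergic markers averaged 5.20 to 5.96 above it. Of the 10 dopaminergic markers 1, the autoreceptor gene Drd2, fell at 10 weeks, by 0.85 (SE 0.12, adjusted p = 0.00336). In the 12 libraries the list medians were -0.16 at 3 weeks and -0.31 at 10 weeks, with 10 and 8 of the 10 markers at lower values in Tfr1-null. Of these, 7 and 8 did not overlap the controls, Th among them at both ages. Of the 7 choroid plexus markers 7 were lower at 3 weeks and 5 at 10 weeks, 4 and 3 of them without overlap. Of 10 endothelial markers 9 and 4 were lower, 2 and 0 without overlap. Of 9 oligodendrocyte markers 8 and 1 were lower, 1 and 0 without overlap. Astrocyte markers were lower for 3 and 2 of 10 and erythrocyte markers for 1 and 3 of 4, all with overlap. Lower values at 3 weeks were thus not particular to the dopaminergic markers. Of all probe sets 9.37% and 9.55% were lower without overlap. At 3 weeks the mean of the 10 dopaminergic markers lay between 12.21 and 12.22 in controls and 12.00 and 12.11 in Tfr1-null 2 to 4. At 10 weeks it lay between 13.00 and 13.35 in control 2 to 4 and 12.58 and 12.88 in Tfr1-null. The part of other cells, or of the lower dopaminergic markers, in the changes of Steap1, Steap4, Tfr2 and Slc11a2 was not tested.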

How the data were processed

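The authors deposited log2 signals made with RMA (robust multi-array average) by Partek 6.5, per the submitters' processing notes, from 50 ng of RNA per library amplified with a NuGEN kit, per the labels' protocols. The deposited table held 45101 probe sets, of which 34958 carried 1 gene symbol, 932 several and 9211 none. Of 64 Affymetrix control probe sets, 61 were left out and the 3 of Tfrc kept, so 45040 were tested.

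Libraries were grouped by title. Each probe set was fitted in limma 3.58.1 (R 4.3.3; lmFit and eBayes) with 4 group means and 1 shared spread, with Benjamini-Hochberg adjustment across the tested probe sets of each contrast and 0.05 as threshold. Residual and prior degrees of freedom were 10 and 2.61 for 14 libraries and 8 and 2.62 for 12. SE is that of the contrast. The fit was tested on simulated data. Figures used matplotlib 3.10.9.

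The members, lists and the 12-library set were chosen with earlier results of these data known. The naming rule took all probe sets of the members, list genes called in a 12-library contrast or else the 2 with the smallest p, and the 3 genes most correlated with each called member; Cybrd1 was named after its values were seen, as were marker genes called. Motifs and chromosomal neighbours were chosen after the data had been seen. Alternatives tried were each library left out, the replicate number as a block, each age alone, array weights, quantile normalization, a filter on dim probe sets, 1 probe set per gene, and a trended, robust prior.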

Additional observations from a re-analysis of the deposited data

Results flagged for a closer look

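In groups of 4 libraries, a library was singled out where its gap to the nearest other took a larger share of the group's range than Dixon's 95% critical value for 4 samples. This happened in 17 of 60 groups. Chance flags about 1 in 20, but the groups are not independent. Of the 17, 6 are the Tfrc values by which 2 libraries were set aside. In 5 the other 3 libraries share 1 value, and in that of Steap4 2 of the other 3 do. The share is therefore not read against chance. The library labelled Tfr1-null 1 at 3 weeks accounted for 8. It was low for Tfrc at 10.40 (1422966_a_at), 10.31 (1422967_a_at), 11.18 (1452661_at), 9.19 (3′ control) and 8.82 (middle control), and for Slc11a2 at 9.31 (1426441_at) and 8.79 (1452078_a_at). It was high for Steap4 at 7.07 (1460197_a_at).

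The library labelled control 1 at 10 weeks accounted for 5. It was high for Tfrc at 13.09 (1452661_at), Steap1 at 5.35 (1424938_at) and Steap3 at 6.16 (1453498_x_at, where the other 3 were equal), and low for Tfr2 at 7.83 (1425381_a_at) and 5.95 (1459994_x_at). The other 4 were also probe sets where the other 3 libraries shared 1 value. These were Slc39a14 1457770_at at 4.64 in Tfr1-null 2 at 3 weeks and 5.65 in control 2 at 10 weeks, and Steap3 1430355_a_at at 3.04 in Tfr1-null 2 at 3 weeks and 3.14 in control 4 at 10 weeks.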

How the results depend on the processing

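No probe set of the 8 genes other than Tfrc that was called at 3 weeks in the 12 libraries lost its call under any alternative run within these 12 that tested it. The choice of the 12 was not varied in these runs. Without 1 library in turn the count at 3 weeks ranged from 5 to 6 and at 10 weeks from 5 to 8. With 14 libraries it was 0 at 3 weeks under every alternative and ranged from 0 to 3 at 10 weeks, the 3 (Slc11a2, Steap2 and Steap4) appearing without the library labelled control 1. In the 12 libraries each age fitted alone gave 8 at 3 weeks and 1 at 10 weeks, array weights 8 and 3, and 1 probe set per gene, with 8 tested, 4 at 10 weeks. The calls between ages stayed at 0 in all fits. Fitting each age alone moved the calls over all probe sets from 370 to 925 at 3 weeks and from 3048 to 227 at 10 weeks, array weights to 1828 and 1061, and 1 probe set per gene to 2015 at 10 weeks; the cause was not tested. Over all probe sets the 14-library count of 170 at 10 weeks became 6 with the replicate block, 2 at that age alone, 4 with array weights, and 3 to 2994 without 1 library.

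Deviations of same-numbered libraries from their group means had correlations of -0.02 to 0.15 at 3 weeks and -0.05 to 0.07 at 10 weeks. Those of libraries with different numbers had correlations of -0.26 to 0.20 and -0.10 to 0.12. The groups are small and the doubtful libraries enter these values, so they cannot show whether same-numbered libraries were paired. With the replicate number as a block the 12-library counts were 5 at 3 weeks and 4 at 10 weeks (201 and 1331 over all probe sets).

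Signs turned only for small differences. In the 14 libraries Slc39a8 at 10 weeks was -0.0614 with the replicate block and Steap2 -0.0028 with array weights. Leaving out 1 library of the 14, Slc39a8 ranged from -0.31 to 0.0536 at 3 weeks and from -0.10 to 0.21 at 10 weeks, and Steap2 from -0.25 to 0.32 at 10 weeks. Of the 12, Slc39a8 ranged from -0.43 to 0.11 at 3 weeks, and at 10 weeks Slc39a14 from -0.45 to 0.0697 and Steap2 from -0.30 to 0.56; the single library that turned the last 2 was control 2.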

Other observations

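Steap2, Steap1 and Steap4 lie in this order on chromosome 5, with Steap1 and Steap2 next to each other, and moved differently. Of the genes measured on either side of the members in RefSeq's order, 0 passed in the 12 libraries at 3 weeks apart from Steap1 itself as the neighbour of Steap2. At 10 weeks C1ql2, the neighbour of Steap3 and the gene of a secreted synaptic protein, rose by 1.50 (SE 0.17, limma adjusted p = 0.000962), while Steap3 differed by 0.18. Sri, which encodes the calcium-binding protein sorcin and neighbours Steap4, fell by 0.42 (SE 0.08, adjusted p = 0.0163). Read by 1 probe set per gene, 8.75% of 18193 genes were called at 10 weeks in the 12 libraries. Whether the neighbours' calls relate to the members was not tested. Tex47, between Steap1 and Steap4, differed by -0.07 at 3 weeks and 0.05 at 10 weeks (adjusted p = 1 and 0.930), and Actl6b and Mospd3, which flank Tfr2, by -0.25 and 0.06 at 3 weeks (adjusted p = 0.833 and 1).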
